A study of Rattus norvegicus with 30 samples.

Results

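Genes that mark neutrophils were followed through the lungs of rats with severe acute pancreatitis (SAP) and their controls. The genes are S100a8, S100a9, Cxcr2, Csf3r, Fpr1, Trem1, Mpo and Elane, taken by symbol from the tables, and they are 8 of 22914 genes counted. Each symbol named 1 row, and all 8 genes were among the 15934 tested.

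Neutrophils are short-lived granulocytes that leave the blood at inflamed sites. They mature in bone marrow under the growth factor G-CSF, are called into tissue by chemokines and formylated peptides, and carry toxic enzymes in granules that are filled before the cells leave the marrow. In acute lung injury they collect in lung capillaries and air spaces, and genes of the mature cell (the S100 proteins and the surface receptors) and genes of the immature cell (Mpo and Elane) report on different stages of their life.

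Poly(A) RNA was sequenced from 30 lungs, with 10 groups of 3 male Sprague-Dawley rats, at 6 or 24 hours after surgery. The rats were 8 weeks old and weighed 180 to 220 g. Sham rats had the pancreas moved at laparotomy, and control (Con) rats received saline in the biliopancreatic duct. SAP rats received 5% sodium taurocholate, a bile salt, at 0.1 mL per 100 g body weight by the same route, as did the rats of the DEX and Emo groups. DEX rats were also given dexamethasone, a synthetic glucocorticoid, at 10 mg/kg intravenously, and Emo rats were given emodin, a plant anthraquinone, by gavage at a dose that the labels give both as 40 and as 10 mg/kg. Treatment came at 2 and 12 hours, so that lungs taken at 6 hours had seen 1 dose, and rats without a drug received the vehicles. The study's methods describe a saline flush of the lung vessels before removal, and how far it cleared blood neutrophils was not measured.

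Libraries held 16813949 to 34692306 reads on genes. In the study's mapping summary, every Sham and Con library had a larger share of uniquely mapped reads than every SAP, DEX and Emo library. This split coincides with taurocholate, so the 2 cannot be told apart in SAP against Sham or Con, and its effect was not tested. Markers of alveolar type 2 cells, whose surfactant genes define distal lung, summed to 24645 to 47345 FPKM (fragments scaled by gene length and library size) per library, led by Sftpc at a mean of 22994 FPKM. Sums of the 6 endothelial markers lay between 836 and 1653 FPKM, and all 6 were detected. The summed level of the 8 neutrophil genes ran from 100.2 to 16184 FPKM, nearly all of it S100a8 and S100a9.

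Upstream sequences are shown for 3 genes whose levels moved together across the libraries (S100a9, Cxcr2 and Csf3r) and for Mpo, which was less correlated with them. They are RefSeq windows of 250 bases before the gene start on GRCr8, a newer build than the one behind the counts, matched by symbol for 6 of the 8 genes (S100a9, Cxcr2, Csf3r, Fpr1, Trem1 and Mpo). Capitals mark matches, on either strand, to 1 of 6 short motifs listed after them.
S100a9 promoter, chr2:178490623-178490872, minus strand: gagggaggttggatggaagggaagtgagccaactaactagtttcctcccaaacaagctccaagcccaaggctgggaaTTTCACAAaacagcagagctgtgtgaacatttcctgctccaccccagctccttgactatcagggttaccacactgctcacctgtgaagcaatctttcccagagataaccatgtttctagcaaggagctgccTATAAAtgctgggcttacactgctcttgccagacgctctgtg
Cxcr2 promoter, chr9:83178395-83178644, plus strand: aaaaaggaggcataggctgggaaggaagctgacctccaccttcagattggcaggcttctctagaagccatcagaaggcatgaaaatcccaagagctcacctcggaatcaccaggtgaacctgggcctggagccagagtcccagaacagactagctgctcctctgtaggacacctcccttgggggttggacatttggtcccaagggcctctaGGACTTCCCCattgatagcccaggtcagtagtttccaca
Csf3r promoter, chr5:143582970-143583219, plus strand: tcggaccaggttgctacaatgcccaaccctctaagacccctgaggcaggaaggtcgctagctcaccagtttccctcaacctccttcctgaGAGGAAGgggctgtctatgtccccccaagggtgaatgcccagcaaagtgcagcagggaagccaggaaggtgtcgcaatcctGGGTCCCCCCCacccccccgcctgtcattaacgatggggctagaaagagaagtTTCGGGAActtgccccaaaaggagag
Mpo promoter, chr10:73092152-73092401, plus strand: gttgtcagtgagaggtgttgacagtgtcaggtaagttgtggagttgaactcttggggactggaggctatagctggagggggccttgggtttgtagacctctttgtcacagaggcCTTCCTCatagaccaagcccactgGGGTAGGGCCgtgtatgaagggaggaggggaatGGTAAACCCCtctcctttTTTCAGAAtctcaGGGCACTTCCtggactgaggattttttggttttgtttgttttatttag

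The motifs were TTNNGNAA (C/EBP factors, which drive granulocyte genes), GAGGAAG (PU.1, the myeloid master factor), GGG and CC with 5 bases between them (NF-kB), TATAAA (the TATA box), TGANTCA (AP-1) and the paired half-sites GGNACA and TGTNC, 3 bases apart (the glucocorticoid receptor). A C/EBP match lay in 4 of the 6 windows, those of S100a9, Csf3r, Fpr1 and Mpo, against 37.2% of 33469 rat windows of the same length. PU.1 matched in 2 windows, those of Csf3r and Mpo, against 10.2% of all windows. In the S100a9 window the TATAAA began 42 bases before the start, and in the Trem1 window the same letters were found on the other strand at its last bases, so that 2 windows held the motif against 12.9% of all. The Trem1 window lies inside the annotated gene and may belong to an alternative start. The NF-kB letters, which are loose, were in 3 windows (Cxcr2, Csf3r and Mpo) against 42.3%, and in Csf3r the 3 matches overlap each other. AP-1 and glucocorticoid receptor letters were in 0 of the 6 windows, against 6.34% and 0.209% of all windows. A match is a string of letters and not a bound site.

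S100a8 and S100a9 encode the 2 chains of calprotectin, the most abundant protein of neutrophil cytoplasm. Both are on chromosome 2 (ENSRNOG00000011557 and ENSRNOG00000011483). At 24 hours the FPKM of S100a8 was 578, 81.2 and 4662 in the 3 Sham rats, 366, 43.2 and 87.9 in the Con rats, 6662, 2065 and 7944 in the SAP rats, 1205, 533 and 1568 in the DEX rats, and 1905, 3078 and 2189 in the Emo rats. All 3 SAP rats lay above all 3 Con and all 3 DEX rats, while 1 Sham rat, replicate 3, lay above the lowest SAP rat. At 6 hours the values were 1284, 2581 and 160.5 in Sham, 494, 1445 and 373 in Con, 1591, 2162 and 880.3 in SAP, 1311, 1519 and 497 in DEX, and 1804, 1860.03 and 472 in Emo, and the 5 groups overlapped.

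S100a9 followed S100a8 closely. Its FPKM at 24 hours was 697, 104.6 and 4443 in Sham, 562, 46.4 and 84.7 in Con, 5704, 2216 and 8075 in SAP, 932, 437 and 1351 in DEX and 2390, 3384 and 1966 in Emo rats. The ratio of S100a8 to S100a9 stayed between 0.604 and 1.29 over the 30 libraries, with a median of 1.01, while each gene ranged over 184-fold and 174-fold.

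**Figure D1:**
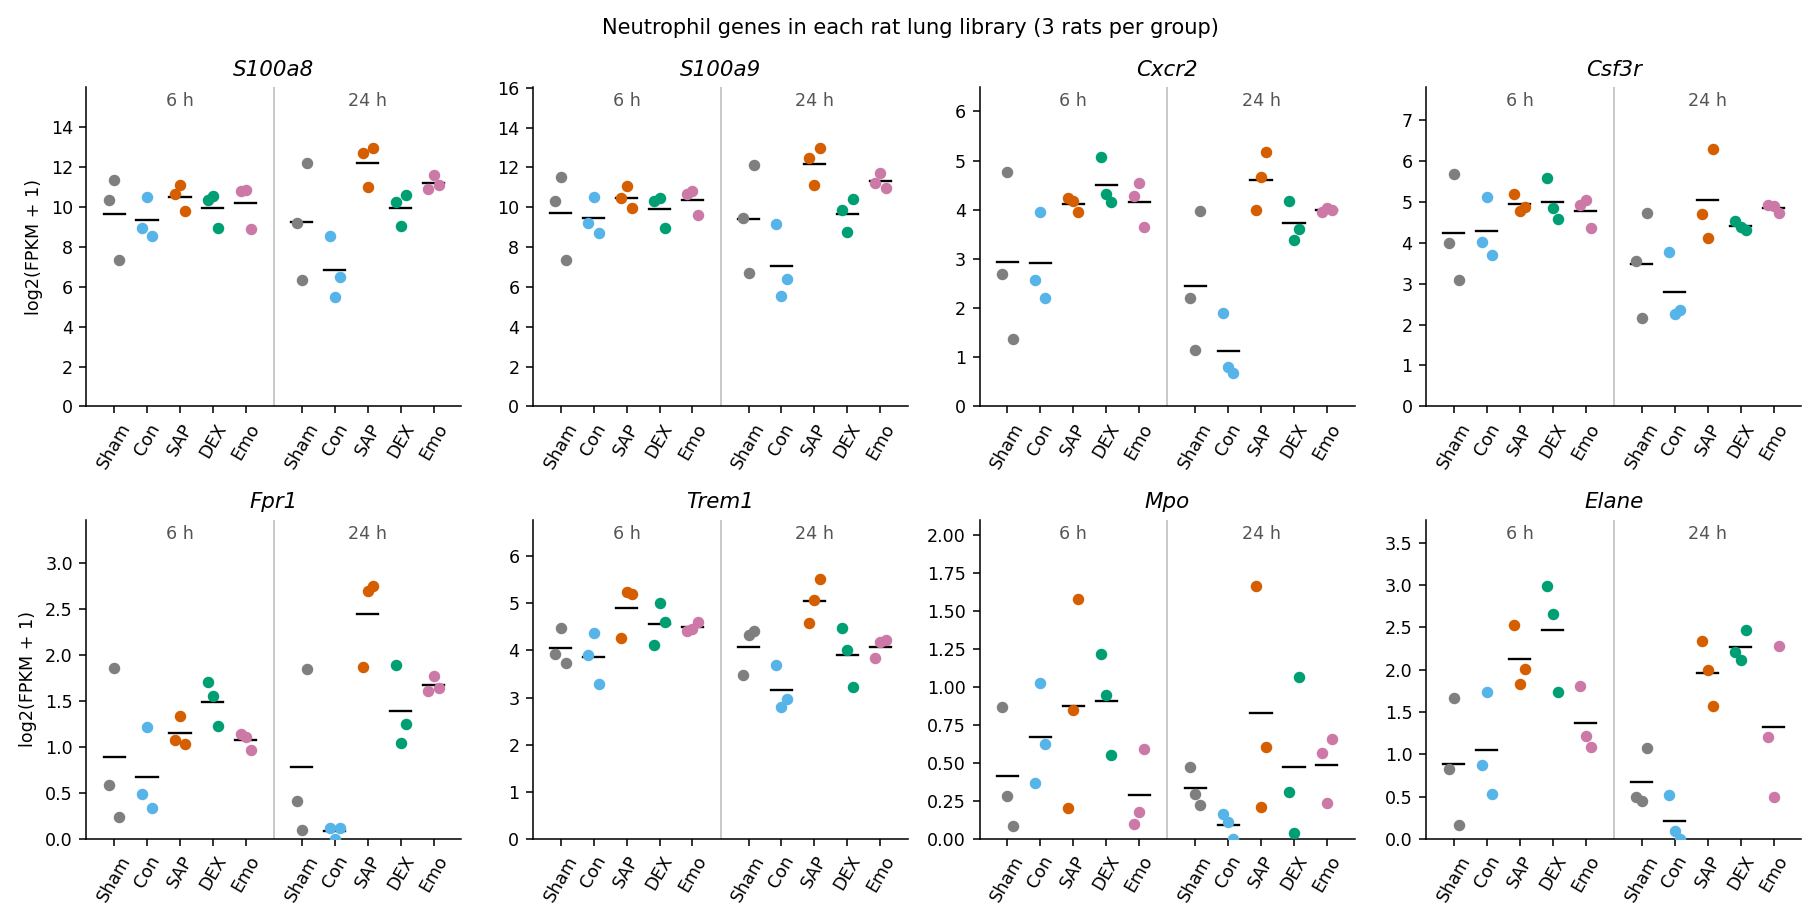
Level of each gene as log2(FPKM + 1) in every library, by group (3 rats each) and time, with a bar at the group mean. In Sham and Con lungs single rats stand far above the others for S100a8, S100a9, Cxcr2, Csf3r and Fpr1, as for S100a8 at 4662 FPKM in 1 Sham rat at 24 hours against 578 and 81.2 in the other two.

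The 3 receptors of the mature cell were read at lower levels. Cxcr2 (ENSRNOG00000014269, chromosome 9) binds the chemokines that draw neutrophils into tissue. Its FPKM at 24 hours was 3.60, 1.22 and 14.7 in Sham, 2.73, 0.74 and 0.61 in Con, 15.04, 24.2 and 35.4 in SAP, 17.2, 9.42 and 11.2 in DEX, and 14.5, 15.4 and 15.04 in Emo rats. The SAP rats lay above all Sham and Con rats and shared their range with the DEX and Emo rats.

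Csf3r (ENSRNOG00000008759, chromosome 5) is the receptor of G-CSF. It read 10.7, 3.48 and 25.4 FPKM in Sham, 12.6, 3.77 and 4.09 in Con, 25.1, 16.4 and 77.04 in SAP, 22.0, 19.7 and 18.8 in DEX and 29.2, 28.7 and 25.6 in Emo rats at 24 hours. SAP replicate 3 stood far above the other two, and both of those were below all 3 Emo rats.

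Fpr1 (ENSRNOG00000011174, chromosome 1) senses formylated peptides of bacteria and mitochondria. It was near the limit of detection in Con rats at 24 hours, with 0.09, 0 and 0.09 FPKM from 3, 0 and 3 reads. In the same hour it read 0.33, 0.07 and 2.61 in Sham, 2.66, 5.51 and 5.75 in SAP, 2.72, 1.06 and 1.38 in DEX and 2.06, 2.41 and 2.12 in Emo rats. Every SAP rat was above every Sham, Con and Emo rat, though by little for the lowest SAP rat and the highest Sham rat.

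Trem1 (ENSRNOG00000022859, chromosome 9) amplifies inflammatory signals in neutrophils and monocytes, and it varied least. At 24 hours it read 10.1, 19.1 and 20.3 FPKM in Sham, 12.0, 5.97 and 6.82 in Con, 22.9, 32.6 and 44.4 in SAP, 21.1, 15.02 and 8.33 in DEX and 13.2, 17.2 and 17.6 in Emo rats. The 3 SAP rats stood above all 12 other rats of that time. At 6 hours it was 14.2, 21.3 and 12.4 in Sham, 13.9, 19.7 and 8.81 in Con, 18.3, 36.9 and 35.9 in SAP, 16.3, 30.9 and 23.2 in DEX and 20.2, 21.1 and 23.1 in Emo rats, with overlap of SAP with each.

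Mpo and Elane encode myeloperoxidase and neutrophil elastase, enzymes of the first granules to form, whose messages are made mainly by precursors in the marrow. Both were low. Mpo (ENSRNOG00000008310, chromosome 10) reached at most 2.18 FPKM and 226 reads, in SAP-24h replicate 1, and its other 29 libraries lay between 0 and 1.99 FPKM. Elane (ENSRNOG00000033685, chromosome 7) read 0.41, 0.36 and 1.11 FPKM in Sham, 0.44, 0.07 and 0 in Con, 4.05, 2.98 and 1.97 in SAP, 3.63, 3.35 and 4.55 in DEX and 1.3, 0.41 and 3.85 in Emo rats at 24 hours. The SAP and DEX rats shared their range and were above all Sham and Con rats.

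The order of group medians differed between the genes. S100a8, S100a9, Cxcr2 and Fpr1 had their highest median in SAP-24h, Csf3r in Emo-6h, Trem1 in SAP-6h and Mpo and Elane in DEX-6h. All 8 had their lowest in Con-24h. Neighbours in this order nearly always overlapped. The exceptions were S100a8 and S100a9 between Emo-24h and Emo-6h, S100a8 between Con-6h and Con-24h and Fpr1 between SAP-24h and Emo-24h.

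Con and Sham rats both lack taurocholate, and the first question is whether they differ in these genes. At 24 hours S100a8 and Fpr1 were lower in Con than in Sham lungs, 2 of the 8 genes, against 0.916% of all tested genes that were called lower. A gene was called where edgeR's quasi-likelihood test gave an adjusted p below 0.05 and the fold was at least 2. The log2 fold change was -3.42 ± 1.09 (SE) for S100a8 (edgeR adjusted p = 0.0473) and -4.05 ± 1.12 for Fpr1 (edgeR adjusted p = 0.0259). The FPKM ranges of the groups overlapped for both genes. Fpr1 had 3, 0 and 3 reads in the Con rats and 14, 3 and 110 in the Sham rats. It passed the filter on low counts only with other groups in the model, so its call does not rest on these 2 groups alone. DESeq2 called 4 genes (1.02% of all genes) and 5 passed at an unadjusted p (2.57%). Passing at an unadjusted p, here and below, means an edgeR p below 0.05 before adjustment together with the same 2-fold limit. Without Sham-24h replicate 3, no gene was called, and S100a8 stood at -0.91 (edgeR adjusted p = 0.628) and Fpr1 at -1.71 (edgeR adjusted p = 0.396). The S100a8 call was also lost without any 1 of the 3 Con-24h rats (edgeR adjusted p from 0.0572 to 0.185), and the Fpr1 call without Con-24h replicate 1 or 2 (edgeR adjusted p = 0.0772 and 0.129). The S100a8 call also ended with the replicate number as a block (-3.68, edgeR adjusted p = 0.056), without the filter on low counts (-3.40, edgeR adjusted p = 0.058) and with only the 2 groups in the model (edgeR adjusted p = 0.193), where Fpr1 has no value. At 6 hours 0 of the 8 genes were called between Con and Sham by edgeR, against 0% of all genes, and 0 by DESeq2, which called 7 of all 15934 genes. At an unadjusted p 0 of the 8 passed. Where 0 of the 8 genes passed at an unadjusted p, here and below, the share of all genes was not counted.

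SAP against Sham asks what pancreatitis with its surgery adds to surgery alone. At 24 hours Trem1 rose, with a log2 fold change of 1.12 ± 0.36 (SE, edgeR adjusted p = 0.0445), from 16.5 ± 5.57 to 33.3 ± 10.7 FPKM (SD, n = 3). It was 1 of the 8 genes, against 1.98% of tested genes called higher. The other 7 had positive estimates from 1.69 to 2.39 on the log2 scale, with edgeR adjusted p from 0.0607 for Elane to 0.258 for S100a9. The groups did not overlap for 4 genes (Cxcr2, Fpr1, Trem1 and Elane), against 7.58% of all genes on the higher side. DESeq2 called Fpr1, Trem1 and Elane, 3 genes against 2.6% of all, and 5 passed at an unadjusted p against 2.89%.

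The count depended on single rats. Sham-24h replicate 3 was the highest of its group for 7 of the 8 genes, all but Mpo. Without it 6 genes were called: S100a8 at 4.28, S100a9 at 3.93, Cxcr2 at 3.52, Csf3r at 2.64, Fpr1 at 4.65 and Trem1 at 1.32 on the log2 scale, with edgeR adjusted p from 0.00415 to 0.0474, while 2.42% of all genes tested in that fit were called higher. Without any 1 of the other 5 rats no gene was called, and Trem1 had an edgeR adjusted p from 0.0512 to 0.166. With only the 2 groups in the model Trem1 was not called either.

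SAP against Con compares taurocholate with saline in the same duct. At 24 hours all 8 genes were higher in SAP lungs, against 3.65% of tested genes called higher. The log2 fold changes were 6.36 ± 1.12 (SE) for Fpr1, 5.19 ± 1.18 for S100a8, 4.65 ± 1.13 for S100a9, 4.30 ± 0.87 for Cxcr2, 4.28 ± 0.98 for Elane, 3.92 ± 1.26 for Mpo, 2.64 ± 0.68 for Csf3r and 2.12 ± 0.38 for Trem1. The estimate for Fpr1 is set against Con rats with 3, 0 and 3 reads. Those for Mpo and Elane are set against Con rats with 10, 8 and 0 reads and with 11, 2 and 0 reads. The adjusted p of edgeR ran from 0.000799 for Fpr1 to 0.0281 for Mpo. No SAP rat overlapped with a Con rat in any of the 8 genes, against 9.87% of all genes on the higher side. For Mpo the gap was small, with 0.16 FPKM (17 reads) in the lowest SAP rat and 0.12 FPKM (10 reads) in the highest Con rat. DESeq2 also called 8 (3.87% of all genes), and 8 passed at an unadjusted p (4.66%).

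For 6 of the genes the call held without any 1 rat, but the estimates leaned on Con-24h replicate 1. Without it they were 6.34 for Elane, 6.48 for S100a9, 6.55 for S100a8, 5.32 for Cxcr2, 3.44 for Csf3r, 4.56 for Mpo, 6.79 for Fpr1 and 2.50 for Trem1 on the log2 scale. The Csf3r call was lost without SAP-24h replicate 3 (1.77, edgeR adjusted p = 0.0671) or Con-24h replicate 2 (2.35, edgeR adjusted p = 0.0562). The Mpo call was lost without SAP-24h replicate 1 (2.31, edgeR adjusted p = 0.226) or any 1 Con-24h rat (edgeR adjusted p from 0.0571 to 0.0901). With only these 2 groups in the model 4 of the 8 genes were called, against 1.02% of all genes tested there called higher, and S100a9, Csf3r, Mpo and Elane were not (edgeR adjusted p from 0.0592 to 0.113).

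**Figure D2:**
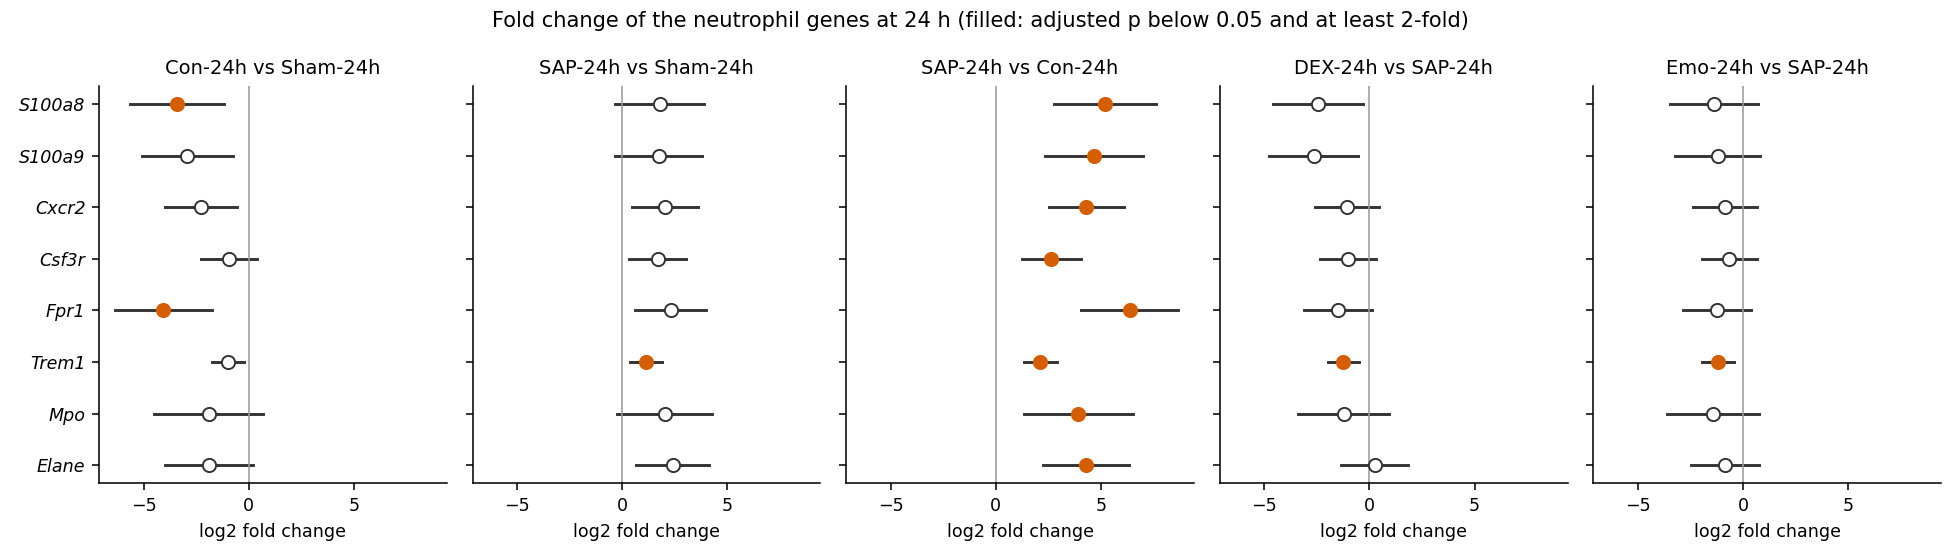
Log2 fold change of the 8 genes in 5 comparisons at 24 hours, with 95% confidence intervals from edgeR. Filled points passed an adjusted p of 0.05 and a 2-fold change. All 8 are filled for SAP against Con, and Trem1 alone for SAP against Sham and for each drug against SAP.

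At 6 hours none of the 8 genes was called by edgeR between SAP and Sham (0.22% of all genes called) or between SAP and Con (0.163%). DESeq2 called 0 of the 8 in both, and 191 and 95 of all genes. Trem1 came closest, with a log2 fold change of 0.97 ± 0.36 (SE, edgeR adjusted p = 0.236) against Sham and 1.17 ± 0.36 (edgeR adjusted p = 0.212) against Con. Elane stood at 1.82 ± 0.81 (edgeR adjusted p = 0.33) against Sham, and its SAP-6h values of 4.76, 2.56 and 3.02 FPKM lay above the Sham-6h values of 0.77, 2.18 and 0.12, as did those of 5.58% of all genes. At an unadjusted p and 2-fold, 1 gene passed in each comparison, Elane against Sham (2.82% of all genes) and Trem1 against Con (1.46%). Trem1 against Sham missed only by the fold limit (edgeR unadjusted p = 0.0135). The difference between the SAP effects at 24 and 6 hours was tested as an interaction. By edgeR 0 of the 8 genes were called (edgeR adjusted p from 0.464 to 0.944), with 0.0314% of all genes called. DESeq2 called 0 of the 8 and 146 of all genes, and 0 of the 8 passed at an unadjusted p.

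Between the 2 times within a treatment, edgeR called 0 of the 8 genes in any treatment. Of all genes edgeR called 0.257% in Sham, 0.00628% in Con, 2.42% in SAP, 7.14% in DEX and 9.41% in Emo rats. DESeq2 also called 0 of the 8. Of all genes DESeq2 called 168 in Sham, 108 in Con, 589 in SAP, 1211 in DEX and 1562 in Emo rats. In Con rats 6 genes passed at an unadjusted p, all lower at 24 hours, against 2.5% of all genes, among them Cxcr2 at -2.43 ± 0.83 (SE, edgeR adjusted p = 0.272) and Fpr1 at -3.37 ± 1.15 (edgeR adjusted p = 0.271). Here Fpr1, with 3, 0 and 3 reads in Con-24h, passed the filter on low counts only with other groups in the model. In SAP rats Fpr1 passed at an unadjusted p, against 1.89% of all genes, with a log2 fold change of 1.99 ± 0.81 (edgeR adjusted p = 0.132) from 1.23 ± 0.26 FPKM at 6 hours to 4.64 ± 1.72 at 24 hours (SD, n = 3). With only these 2 groups in the model edgeR called it (1.99, edgeR adjusted p = 0.0409), against 0.215% of all genes tested there called higher.

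DEX and Emo against SAP ask what each drug does to the diseased lung, and the comparisons share the same SAP rats. At 24 hours Trem1 was lower in DEX lungs, with a log2 fold change of -1.24 ± 0.36 (SE, edgeR adjusted p = 0.0374), 2.36-fold lower, and it was the 1 gene of the 8 called, against 2.55% of all genes called lower. S100a8 at -2.44 ± 1.04 and S100a9 at -2.65 ± 1.03 had larger estimates with edgeR adjusted p of 0.158 and 0.118, and for both the SAP and DEX rats did not overlap. These 3 genes were the ones with groups apart, against 8.65% of all genes on the lower side. DESeq2 called S100a9 and Trem1 (3.33% of all genes), and 3 genes passed at an unadjusted p (4.47%). Elane had a positive estimate of 0.25 ± 0.76 (edgeR adjusted p = 0.872), with a 95% interval from -1.33 to 1.82.

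In Emo lungs at 24 hours Trem1 was lower by a similar estimate, -1.19 ± 0.36 (SE, edgeR adjusted p = 0.0431), 2.29-fold lower, and again it was the 1 gene of the 8 called, against 1.26% of all genes called lower. S100a8 stood at -1.38 ± 1.01 and S100a9 at -1.21 ± 0.98, with edgeR adjusted p of 0.395 and 0.452. Fpr1 and Trem1 were the 2 genes whose groups were apart, against 6.23% of all genes on the lower side. DESeq2 called 1 gene (1.68% of all), and 1 passed at an unadjusted p (2.11%). The Trem1 call was lost without DEX-24h replicate 2 or 3 or SAP-24h replicate 2 or 3 in the first comparison (edgeR adjusted p from 0.0578 to 0.16), and without any 1 Emo-24h rat or SAP-24h replicate 2 or 3 in the second (from 0.0591 to 0.147). With only the 2 groups in each model it was not called in either.

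At 6 hours edgeR called 0 of the 8 genes in DEX against SAP (0.515% of all genes called) or in Emo against SAP (0.0251%). DESeq2 called 0 of the 8 in both, and 151 and 25 of all genes. At an unadjusted p 0 of the 8 passed in either. The interactions of drug and time gave no call by either tool and none at an unadjusted p, with edgeR adjusted p from 0.423 to 0.939 for DEX and from 0.42 to 0.924 for Emo. Of all genes 0.138% and 1.68% were called by edgeR, and DESeq2 called 180 and 605 genes. Emo and DEX did not differ by an edgeR call at 6 hours (1.41% of all genes called) or 24 hours (5.06%), nor by DESeq2 or an unadjusted p. Of all genes DESeq2 called 385 at 6 hours and 987 at 24 hours. At 24 hours the difference Emo minus DEX was 1.06 on the log2 scale for S100a8 (95% interval from -1.004 to 3.12), 1.44 for S100a9 (from -0.60 to 3.49) and 0.05 for Trem1 (from -0.70 to 0.79). For S100a8 and S100a9 the Emo rats lay above all DEX rats, and for Csf3r also, 3 genes against 18.6% of all on the higher side.

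Against Sham, neither drug group had a called gene at 6 hours (3.97% of all genes called for DEX and 0.477% for Emo) or 24 hours (4.15% and 0%). Elane was the closest in DEX lungs. At 24 hours its log2 fold change against Sham was 2.64 ± 0.84 (SE, edgeR adjusted p = 0.0584), and at 6 hours 2.32 ± 0.82 (edgeR adjusted p = 0.0718). With only the 2 groups in the model edgeR called Elane at 24 hours (2.63, edgeR adjusted p = 0.0268), against 0.836% of all genes tested there called higher. DESeq2 called it at both times, 1 gene against 2.8% of all at 6 hours and 1.24% at 24 hours, and it was the 1 gene that passed at an unadjusted p in each (3.72% and 1.83% of all). Without Sham-6h replicate 2, edgeR called 2 of the 8 genes at 6 hours, Elane among them at 3.47 (edgeR adjusted p = 0.0314), against 2.55% of all genes called higher in that fit, and without Sham-24h replicate 3 it called 1 at 24 hours, which was not Elane (edgeR adjusted p = 0.0575), against 0.855% of all. For Emo against Sham none of the 8 genes passed by DESeq2 or at an unadjusted p at either time. Of all genes DESeq2 called 178 at 6 hours and 0 at 24 hours.

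The genes were among the most variable of the lung. The SD of log2 counts, scaled to library size, between rats of 1 group was 1.43 for S100a8, 1.39 for S100a9, 1.01 for Mpo, 0.95 for Cxcr2, 0.84 for Csf3r, 0.72 for Fpr1, 0.71 for Elane and 0.47 for Trem1, while the median over all tested genes was 0.25. S100a8 had a larger spread than 99.5% of tested genes, and Trem1 than 88.2%. In 7 of the 8 genes the spread was larger among Sham and Con rats than among taurocholate rats, by 2.09 to 3.46 times for S100a8, S100a9, Cxcr2, Csf3r and Fpr1 and by 1.14 and 1.11 times for Trem1 and Elane. For Mpo the ratio was 0.62, and over all tested genes its median was 0.999. The main tests used 1 spread per gene over all 10 groups. For S100a8, S100a9, Cxcr2, Csf3r and Fpr1, SEs may thus be too wide among taurocholate groups and too narrow against Sham or Con. This was not tested beyond the fits with only the compared groups. In Con-6h replicate 2 all 8 genes were the highest of their group, in Con-24h replicate 1 the same held for 7 genes with Fpr1 tied at 3 reads, and in Sham-6h replicate 3 all 8 were the lowest. In a whole lung more neutrophils and more message per neutrophil cannot be told apart.

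S100a8, S100a9, Cxcr2, Csf3r and Fpr1 moved together across the 30 libraries. Pearson's r of log2(FPKM + 1) for their 10 pairs ran from 0.77 to 0.99 and Spearman's rho from 0.67 to 0.98. All 10 passed a permutation test, with an adjusted p over all 28 pairs of at most 0.00021. The lowest r was 0.72 without the 2 libraries farthest from the median of the first gene, 0.75 within 6 hours and 0.84 within 24 hours. When each library was taken as its deviation from its group mean, r was still 0.72 to 0.99 (permutation within groups, adjusted p of at most 0.0171).

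With these 5 genes Elane had r from 0.55 to 0.78, Trem1 from 0.62 to 0.73 and Mpo from 0.25 to 0.38, so that the highest value with Elane lay within the range of the 10 pairs. Over all 28 pairs, 24 passed by Pearson's r, 22 by Spearman's rho and 15 on deviations from group means, and on those deviations 0 of the 7 pairs with Mpo passed and 1 of the 7 with Trem1. With a pseudocount of 0.1 all 28 passed by Pearson's r, the pairs of Mpo with Cxcr2, Csf3r, Fpr1 and Trem1 among them at r from 0.36 to 0.43 (permutation adjusted p from 0.0204 to 0.0496). Mpo and Elane, both enzymes of the first granules, correlated at 0.52 (permutation adjusted p = 0.00358), and at 0.28 on deviations (permutation adjusted p = 0.224).

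**Figure D3:**
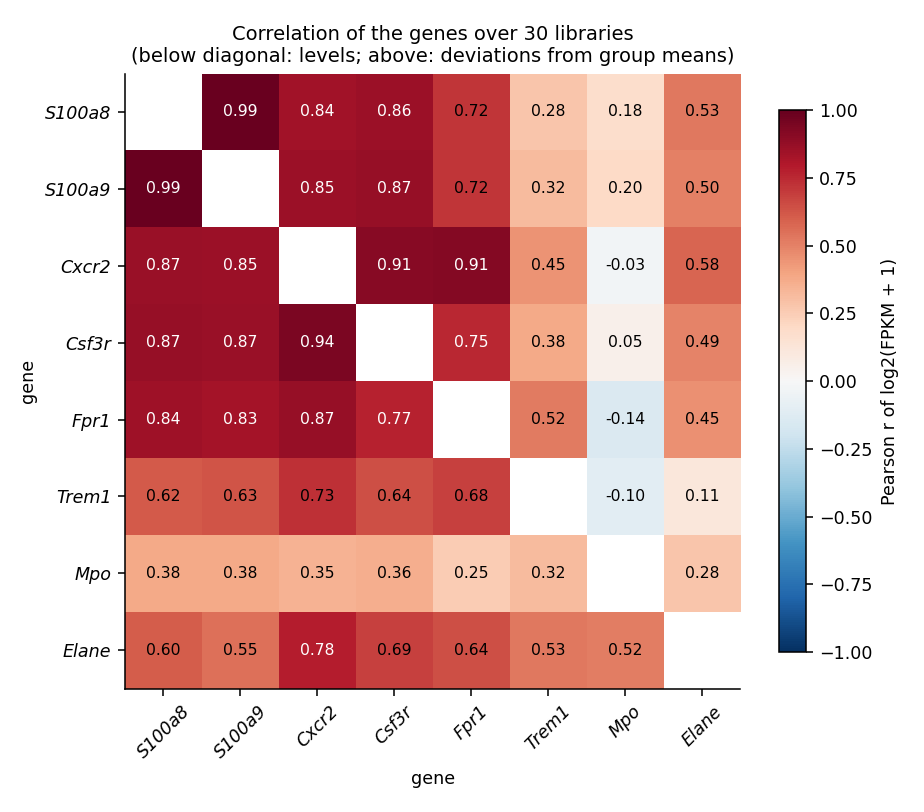
Pearson's r between the 8 genes over 30 libraries, on log2(FPKM + 1) below the diagonal and on deviations from group means above it. The square of S100a8, S100a9, Cxcr2, Csf3r and Fpr1 holds r of 0.72 or more on both sides, and the Mpo column above the diagonal falls between -0.14 and 0.20 for the 6 genes before it.

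For each gene the 3 most similar of 12361 genes outside the 8 were found by Pearson's r over the 30 libraries, as a description. The other 7 were left out of this search, and some lay closer, as S100a8 and S100a9 did to each other (r = 0.99). Among the genes searched Mmp8, the neutrophil collagenase of the specific granules, was nearest to S100a8 (r = 0.95) and S100a9 (0.95), followed by Ifitm6 and Mmp9 for S100a8 and by Pglyrp1 and Mmp9 for S100a9. Mmp9 is the gelatinase of neutrophil granules. Pglyrp1, a peptidoglycan-binding granule protein, was nearest to Cxcr2 (0.94), followed by Prok2 and the decoy receptor Il1r2. Prok2, a secreted prokineticin, was nearest to Csf3r (0.95), followed by Pglyrp1 and Msl1. Fpr1 was most like Serpinb1a (0.90), an inhibitor of elastase, followed by Slc2a3 and Ifitm6. Trem1 had weaker neighbours, Mxd1 (0.80), Glipr2 and Dgat2. Mpo was most like Ppif (0.86) and the defensins Np4 (0.81) and Defa5 (0.80). Elane was most like Il1r2 (0.90), Rufy4 and Agpat9. Of these 24 places 20 were kept with a pseudocount of 0.1, 23 without a minimum level, 14 by Spearman's rho and 8 on deviations from group means.

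Other genes of the neutrophil were counted in lists. None of these counts is set against chance, and the lists were chosen with results of these data known. Among receptors of the neutrophil surface, 5 of 17 rose in SAP-24h vs Sham-24h and 12 of 17 in SAP-24h vs Con-24h, with median log2 fold changes of 0.96 and 2.02 against -0.03 and -0.01 over all tested genes. Of all tested genes 1.98% were called higher against Sham and 3.65% against Con, and 2.55% were called lower under DEX and 1.26% under Emo, for this list and those that follow. In the opposite directions 3.01% were called lower against Sham, 3.26% lower against Con and 1.18% higher under DEX. Il1r2, a decoy receptor of interleukin 1, rose from 15.9 to 160.4 FPKM against Sham (log2 fold change 3.46 ± 0.86 SE, edgeR adjusted p = 0.0129). Csf2rb, the shared chain of the GM-CSF receptor, rose by 2.27 ± 0.52 (edgeR adjusted p = 0.00793), Tlr2 by 1.72 and Cxcr1, the other receptor of the same chemokines, by 1.27. The Csf2rb call held without any 1 rat, and those of Il1r2, Tlr2 and Cxcr1 were lost in 2, 4 and 4 of 6 such fits. With only the 2 groups in the model all 4 calls were lost (edgeR adjusted p from 0.0995 to 0.157). In DEX-24h vs SAP-24h 6 of 17 fell, with a median of -1.22, among them Tlr2 by 2.79 and Csf2rb by 2.38, and in Emo-24h vs SAP-24h 1 of 17, with a median of -0.23, while the medians over all tested genes were 0.0022 and 0.015.

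Among genes of the specific and gelatinase granules, which form after the azurophil granules, 1 of 9 rose against Sham and 6 of 9 against Con at 24 hours, with medians of 1.14 and 3.05. Chi3l1, a chitinase-like lectin, was the one against Sham (1.14 ± 0.36 SE, edgeR adjusted p = 0.0404), and its call was lost in 4 of 6 fits without 1 rat, with the replicate block (edgeR adjusted p = 0.0518) and with only the 2 groups in the model (edgeR adjusted p = 0.186). Its mean was 127.6 FPKM in Sham, 118.4 in Con and 257.9 in SAP rats at 24 hours. Which cells made it was not tested. Under DEX 3 of 9 fell, with a median of -1.99. Ngp, a granule protein of the cathelicidin kind, fell by 5.04 ± 1.22 (edgeR adjusted p = 0.014), from 38.3 to 1.25 FPKM, and Camp, the cathelicidin itself, fell by 2.50 ± 0.63 (edgeR adjusted p = 0.017). These calls were lost in 3 and 2 of 6 fits without 1 rat, and that of Ngp also with only the 2 groups in the model (edgeR adjusted p = 0.0779). Without SAP-24h replicate 1 Ngp stood at -3.70 (edgeR adjusted p = 0.0683). Under Emo 1 of 9 fell, Camp by 2.21 ± 0.62 (edgeR adjusted p = 0.0316), with a median of -1.55, and Ngp stood at -3.06 ± 1.09 (edgeR adjusted p = 0.0786). DESeq2 called Ngp under Emo (-3.10, DESeq2 adjusted p = 0.0274), as did edgeR in 1 of 6 fits without 1 rat, and it ranged from -4.31 without Emo-24h replicate 1 to -1.73 without SAP-24h replicate 1 (edgeR adjusted p = 0.356). The Camp call was lost in 5 of 6 fits without 1 rat and with only the 2 groups in the model (edgeR adjusted p = 0.0671). Of the azurophil granule genes, the list closest to Mpo and Elane in kind, 0 of 5 were called in these 3 comparisons, with medians of 0.57, 0.55 and -0.31. At an unadjusted p and 2-fold, 1 was lower against Sham (5.45% of all tested genes), 0 differed from Con (9.13% in either direction) and 1 was higher under DEX (2.8%). Ctsc, the protease that activates elastase, led that list in level, at 107.0 ± 37.6 FPKM in SAP and 74.5 ± 12.6 in Sham rats at 24 hours (SD, n = 3). Its difference had an edgeR adjusted p of 0.0134 but stayed under 2-fold, at 0.64 on the log2 scale.

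The genes of the NADPH oxidase, the enzyme of the respiratory burst, had median log2 fold changes of 0.72 against Sham, 0.96 against Con and -1.12 under DEX at 24 hours, and gave 0 calls under Emo by edgeR, also at an unadjusted p. In DEX lungs Ncf1 fell by 2.15 ± 0.28 (SE, edgeR adjusted p = 8.37e-05), Rac2 by 1.10 and the catalytic subunit Cybb by 1.13. The calls of Ncf1 and Rac2 held without any 1 rat, and that of Cybb was lost in 3 of 6 fits and with only the 2 groups in the model (edgeR adjusted p = 0.139). Macrophages also use these genes.

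**Figure D4:**
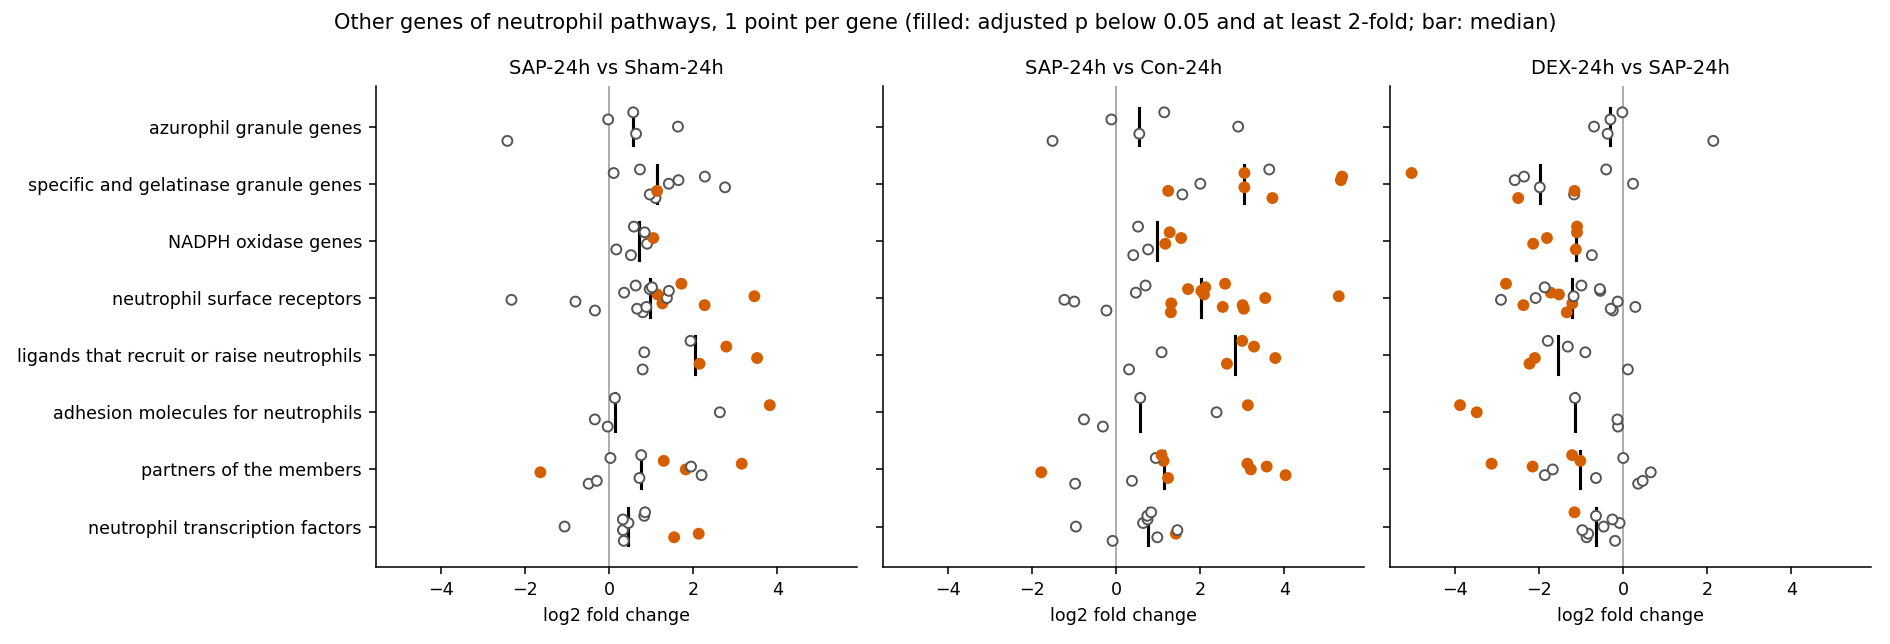
Log2 fold change of the tested genes of 8 neutrophil lists at 24 hours, 1 point per gene, with a bar at the list median. In the receptor list the filled points number 5 of 17 for SAP against Sham, 12 of 17 for SAP against Con and 6 of 17 for DEX against SAP.

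Ligands that recruit neutrophils or raise their number gave 3 rises of 6 tested against Sham and 4 against Con at 24 hours, and 2 falls under DEX and 1 under Emo. Their medians were 2.04, 2.82, -1.56 and -1.47. Cxcl2, a ligand of Cxcr2, rose from 0.64 to 6.70 FPKM against Sham (3.52 ± 0.64 SE, edgeR adjusted p = 0.00203), Cxcl1 from 13.9 to 54.4 (2.15 ± 0.60, edgeR adjusted p = 0.0229) and Cxcl6 from 0.127 to 0.80 (2.79 ± 0.85, edgeR adjusted p = 0.0345). The Cxcl2 call held without any 1 rat, while those of Cxcl1 and Cxcl6 were lost in 3 and 5 of 6 fits. All 3 were lost with only the 2 groups in the model (edgeR adjusted p from 0.101 to 0.233). In Emo lungs Cxcl2 fell by 2.36, a call lost in 4 of 6 fits and with only the 2 groups in the model (edgeR adjusted p = 0.171). In DEX lungs Cxcl1 fell by 2.24 and Cxcl2 by 2.11, and these calls were lost in 3 and 4 of 6 fits and, with only the 2 groups in the model, both (edgeR adjusted p = 0.28 and 0.23). Cxcl1 ranged from 6.75 to 119.15 FPKM in the SAP rats, and without SAP-24h replicate 1 it stood at 0.75 against Sham (edgeR adjusted p = 0.392) and at -0.82 under DEX (edgeR adjusted p = 0.399).

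Among 5 adhesion molecules that hold neutrophils on endothelium, Selp rose by 3.82 ± 0.82 (SE, edgeR adjusted p = 0.00536) against Sham at 24 hours, from 1.67 to 20.7 FPKM, and fell by 3.89 ± 0.83 (edgeR adjusted p = 0.00571) under DEX, where Sele fell too, by 3.49. Selp encodes P-selectin, which platelets carry as well. The SAP rats ranged from 5.11 to 50.45 FPKM of Selp, and without SAP-24h replicate 1 it stood at 1.89 against Sham (edgeR adjusted p = 0.0852) and at -1.94 under DEX (edgeR adjusted p = 0.0907), so that both calls were lost. The Sele call was lost in 3 of 6 fits without 1 rat, at -2.27 (edgeR adjusted p = 0.241) without the same rat, and also without the filter on low counts (edgeR adjusted p = 0.0529). With only the 2 groups in the model the Selp calls were lost (edgeR adjusted p = 0.125 and 0.108), as was that of Sele (0.146). The median of the list was 0.14 against Sham and -1.15 under DEX. Under Emo 0 of 5 were called by edgeR and 1 passed at an unadjusted p, with a median of 0.26, and Selp stood at -2.26 ± 0.77 (edgeR adjusted p = 0.0654), or at -0.32 without SAP-24h replicate 1 (edgeR adjusted p = 0.808). DESeq2 called Selp under Emo (-2.30, DESeq2 adjusted p = 0.0287), as did edgeR in 2 of 6 fits without 1 rat (lowest edgeR adjusted p = 0.029).

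Of 11 genes whose products act with the 8, 3 rose and 1 fell against Sham, and 7 rose and 1 fell against Con. Stat3 (1.30 ± 0.24 SE, edgeR adjusted p = 0.00203) and its target Socs3 (3.16 ± 0.56, edgeR adjusted p = 0.00167), on the path from the G-CSF receptor, rose against Sham, as did Serpinb1a (1.82). Serpina1, the plasma inhibitor of elastase, fell by 1.64. The Socs3 call held without any 1 rat, and those of Stat3, Serpina1 and Serpinb1a were lost in 1, 3 and 4 of 6 fits. These 4 calls against Sham were lost with only the 2 groups in the model (edgeR adjusted p from 0.0925 to 0.22). Under DEX 4 of 11 fell, Socs3 by 3.14 among them. The list's median was 0.76 against Sham and -1.03 under DEX, and that of the 9 neutrophil transcription factors 0.46 and -0.65. Of these factors 2 rose against Sham, Cebpb by 1.55 ± 0.28 and Cebpd by 2.13 ± 0.43 (edgeR adjusted p = 0.00203 and 0.00355), and both calls held without any 1 rat and were lost with only the 2 groups in the model (edgeR adjusted p = 0.0908 and 0.0995). In Con-24h, where the 8 genes had their lowest medians, Cebpb and Cebpd averaged 201 and 208 FPKM. Their means in SAP-24h were 358 and 502 FPKM, and in DEX-6h 399 and 530. Which cells made them was not tested. Of the 9 factors 1 fell under DEX, Spi1, the gene of PU.1, by 1.16 ± 0.22 (edgeR adjusted p = 0.00255), a call lost in 1 of 6 fits. Under Emo 1 of the 11 partners fell, Socs3 by 1.79 ± 0.53 (edgeR adjusted p = 0.0376), and 2 of the 9 factors, Cebpb by 1.48 and Cebpd by 2.04 (edgeR adjusted p = 0.00465 and 0.00706), with list medians of -0.69 and -0.45. Without 1 rat these 3 calls were lost in 4, 0 and 1 of 6 fits, and with only the 2 groups in the model all 3 were lost (edgeR adjusted p from 0.113 to 0.136). The Socs3 call was also lost with the replicate block (-1.68, edgeR adjusted p = 0.0514), and without SAP-24h replicate 1 it stood at -0.996 (edgeR adjusted p = 0.242). Whether the drugs differ in these lists was not tested.

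Markers of other cells moved in the same lungs, and their part in the results above was not tested. The 10 macrophage and monocyte markers summed to between 229 and 340 FPKM in SAP rats at 24 hours, and between 218 and 226 in Sham rats. Of them 2 rose, Cd14 by 1.67 ± 0.34 (SE, edgeR adjusted p = 0.00384) and Marco, and Cx3cr1 fell by 2.15 under DEX. Marco was listed at 0 in the 3 Sham-24h rats and at 0.377 ± 0.440 FPKM (SD, n = 3) in SAP-24h, from 0 to 0.86, so that the ranges touched. Whether its call holds without 1 rat was not examined. Under Emo Cd14 fell by 1.54, and Cx3cr1 rose by 1.58, as did Cd3d by 1.58 and Cd3e by 1.72 of the T cell markers (2 of 6), against 1.93% of all genes called higher. These 4 calls were lost in 2, 5, 5 and 5 of 6 fits without 1 rat and with only the 2 groups in the model (edgeR adjusted p from 0.125 to 0.148), and those of Cx3cr1 and Cd3d also without the filter on low counts (edgeR adjusted p = 0.0501 and 0.0508). T cell markers summed to between 11.7 and 15.8 FPKM in these SAP rats, 41.1 and 59.6 in Sham rats and 5.82 and 12.7 in DEX rats, and 5 of 6 fell against Sham, against 3.01% of all tested genes, Cd3d by 2.00, Cd3e by 2.04, Cd3g by 1.98 and Cd5 by 2.14 among them. The calls of Cd3g and Cd5 were lost in 3 and 4 of 6 fits without 1 rat and with only the 2 groups in the model (edgeR adjusted p = 0.0609 and 0.152). Of the 5 B cell markers 0 were called against Sham by edgeR, 0 at an unadjusted p, and 3 of 5 fell under DEX, Cd79a by 1.47 and Cd79b by 1.83 among them, calls each lost in 4 of 6 fits without 1 rat (edgeR adjusted p up to 0.161). With only the 2 groups in the model that of Cd79b was lost (edgeR adjusted p = 0.0867). Of 5 markers of alveolar type 1 cells 1 fell against Sham, Aqp5 by 1.55, with a list median of -0.69. Of the 6 endothelial markers 1 fell, Emcn by 1.19, with a list median of 0.09 and sums between 898 and 966 FPKM in SAP-24h and between 856 and 1114 in Sham-24h. Kdr, a VEGF receptor of endothelium, stood at -0.83 (edgeR adjusted p = 0.0222), under 2-fold. At 6 hours Kdr was the 1 of 6 that fell against Sham, by 1.21 ± 0.23 (SE, edgeR adjusted p = 0.0246), from 38.6 to 16.2 FPKM, against 0.22% of all genes called in either direction. The endothelial sums were higher, between 1170 and 1574 FPKM in SAP-6h and between 1123 and 1159 in Sham-6h, and the list median was -0.0045. The Kdr call was lost in 4 of 6 fits without 1 rat and with only the 2 groups in the model (edgeR adjusted p = 0.0995). Against Sham at 24 hours the Cd14, Cd3d and Emcn calls held without any 1 rat, and that of Cd3e was lost in 1 of 6 fits. The Aqp5 call against Sham was lost in 5 of 6 fits and without the filter on low counts (edgeR adjusted p = 0.0505). Under DEX the Cx3cr1 call was lost in 1 of 6 fits. With only the 2 groups in the model the calls of Cd14, Cd3d, Cd3e, Aqp5 and Emcn against Sham were lost (edgeR adjusted p from 0.0536 to 0.123), as was that of Cx3cr1 under DEX (0.0714). Markers of dividing progenitors summed to between 48.6 and 59.7 FPKM in SAP-24h and between 66.1 and 99.98 in Sham-24h, without overlap, and 0 of 7 were called against Sham by edgeR or at an unadjusted p. Of them Kit rose by 1.45 under DEX.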

How the data were processed

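Reads were mapped by the authors with TopHat2 to a rat Ensembl genome that the methods call rat_ensembl_v6, uniquely mapped reads were counted per gene, and both the raw read counts and FPKM values (rounded) were deposited. The TopHat2 version was not given in the sources used here. Genes were tested on the deposited counts with edgeR 4.0.16 in R 4.3.3 (filterByExpr with a minimum of 10, TMM, 10 group means over 30 libraries, quasi-likelihood F test, Benjamini-Hochberg over 15934 genes), in 21 comparisons and 3 interactions of treatment and time. Calls needed an adjusted p below 0.05 and a change of at least 2-fold. Counts at an unadjusted p kept the 2-fold limit. The deposited FPKM values were used for levels and, as log2(FPKM + 1), for correlations (two-sided permutation tests with 100000 shuffles, smallest p 1e-05). The code was tested on simulated data. DESeq2, other scalings, filters and models and the removal of each library were tried as alternatives.

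The 8 genes and all lists were chosen with earlier results of these data known. From each list, up to 4 genes called for SAP against Sham at 24 hours, then DEX against SAP, then SAP against Sham at 6 hours, are named by smallest adjusted p, or else the gene of highest mean FPKM. In the lists, 6 symbols had no row, and Tnf, which had 2, was read from the first. Some genes that the rule names are not reported here.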

Additional observations from a re-analysis of the deposited data

How the results depend on the processing

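The counts of called genes moved with the model and the tool. With only the compared groups in the model at 24 hours, 0 genes were called for SAP or Con against Sham and for DEX or Emo against SAP, and 4 for SAP against Con (1.02% of all genes tested there called higher). The same model called 1 for DEX against Sham (Elane, with 0.836% called higher) and 1 for SAP between its times (Fpr1, with 0.215%). In that model Fpr1 did not pass the filter on low counts for Con against Sham at 24 hours or for Con between its times, and it has no value there. DESeq2 called 3 for SAP against Sham at 24 hours, 4 for Con against Sham, 2 for DEX against SAP, and 1 for DEX against Sham at each time. At an unadjusted p there were 5 for SAP and for Con against Sham at 24 hours, 6 for Con between its times, 3 for DEX against SAP, and 1 each for SAP against Sham and Con at 6 hours, DEX against Sham at each time and SAP between its times. Without a filter on low counts, 1 gene was called for Con against Sham at 24 hours, as S100a8 was lost (edgeR adjusted p = 0.058). RLE scaling and dropping the limit on the fold left these counts within 1.5 times.

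Leaving out 1 library at a time, the count at 24 hours ranged from 0 to 6 for SAP against Sham, 6 to 8 for SAP against Con, 0 to 3 for Con against Sham, 0 to 1 for DEX and Emo against SAP and for DEX against Sham, and at 6 hours from 0 to 2 for DEX against Sham. In fits with a called gene, 2.42% of all genes were called higher for SAP against Sham and 2.2% to 4.31% for SAP against Con. For DEX against Sham 0.855% were called higher at 24 hours and 2.55% at 6 hours. Called lower were 0.266% to 2.1% for Con against Sham, 1.73% and 1.91% for DEX against SAP and 0.737% for Emo against SAP. A group left with 2 rats shared its spread with the others. Log2 fold changes that changed sign ranged from -2.91 to 0.39 for Mpo and -0.0021 to 0.59 for Elane in DEX against SAP, from -1.94 to 0.19 for Mpo and -1.03 to 0.22 for Csf3r in Emo against SAP, and from -1.75 to 0.0054 for Csf3r in Con against Sham. The sign changed without SAP-24h replicate 1 for Mpo, without SAP-24h replicate 3 for Elane and for Csf3r in Emo against SAP, and without Sham-24h replicate 3 for Csf3r in Con against Sham. On deviations from group means the correlation of Mpo turned negative with Cxcr2 (-0.027), Fpr1 (-0.14) and Trem1 (-0.10).

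Replicate numbers did not pair the rats. Same-numbered libraries of different groups had a median correlation of deviations of 0.0095, against 0.0094 for other numbers, 36 of 135 such pairs were over 0.1, and 8 of 30 libraries correlated best with their own number. With the number as a replicate block, 1 gene was called for Con against Sham at 24 hours, as S100a8 was lost (edgeR adjusted p = 0.056), and no other count of called genes moved by over 1.5 times. The cause of these shifts was not tested.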

Other observations

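At 6 hours red cell markers summed to 1852 to 2387 FPKM in SAP-6h lungs against 195 to 924 in Sham-6h, and platelet markers to 106.7 to 333 against 44.3 to 114, so that the red cell sums were apart and the platelet sums overlapped. None of these 10 genes was called by edgeR in SAP-6h vs Sham-6h, and at an unadjusted p all 4 tested red cell genes and 5 of 6 platelet genes were higher, with median log2 fold changes of 2.22 and 2.08, against 2.82% of all tested genes higher at an unadjusted p and 0.22% called in either direction. Hbb, a beta globin, read 2141 ± 280 FPKM in SAP-6h and 468 ± 376 in Sham-6h, and Pf4, a platelet chemokine, 184 ± 93.1 and 67.2 ± 31.3 (SD, n = 3). At 24 hours the red cell sums of 409 to 836 FPKM in SAP and 134 to 1399 in Sham overlapped.

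At 24 hours, of 9 markers of eosinophils, basophils and mast cells, 2 fell in SAP against Sham (3.01% of all tested genes were called lower), the mast cell carboxypeptidase Cpa3 by 2.66 ± 0.52 (SE, edgeR adjusted p = 0.003) and the IgE receptor chain Fcer1a by 2.15 ± 0.63 (edgeR adjusted p = 0.0297), and all 9 estimates were negative, with a median of -2.15. The Cpa3 call was lost with only the 2 groups in the model (edgeR adjusted p = 0.0995). Whether the Fcer1a call holds in other fits was not examined. The summed level of the 9 markers was between 15.3 and 16.9 FPKM in these SAP rats, and between 21.0 and 72.2 in Sham rats.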
